A study of Xenopus tropicalis with 13 samples.

Results

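The levels and transcript pieces of 5 genes of complement and of innate RNA sensing were followed in whole single embryos of the frog Xenopus tropicalis, with and without an antisense morpholino oligonucleotide (MO) against the RNA-binding protein Taf15. The genes were masp1, c5, cfhr2, ifit5 and ddx58, chosen by name from the authors' deposited tables with results of these data known, and they are 5 of the 3270 genes that the tables of expression and of bin usage list. Polyadenylated RNA was sequenced from 3 uninjected and 3 MO-injected gastrulae at stage 10 and from 4 uninjected and 3 MO-injected neurulae at stage 15. All 13 were separate embryos, the uninjected ones received no control oligonucleotide, and the labels do not state which of the morpholinos in the design was injected. The MO-injected embryos carry the code trns1MO or Trns1MO in their titles, which the labels do not spell out, and some title codes are shared by injected and uninjected embryos of stage 15.

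Complement is a cascade of plasma proteases that is started by recognition proteins, is amplified through factor B, and ends in cleavage of the component C5 and assembly of a membrane pore; proteins of the factor H family bind its fragments and regulate it. Innate RNA sensing is done inside cells, where helicases such as RIG-I, the product of ddx58, detect viral-type RNA and signal through adaptor proteins and kinases to interferon genes, and where IFIT proteins bind foreign RNA ends. In human patients, mutations in MASP1 cause a syndrome of facial and other malformations, and in Xenopus the complement fragment C3a and its receptor act in neural crest migration.

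By what was listed, the members fell into 2 kinds. In masp1 and c5, a single piece of the gene was listed at stage 15, with more reads in MO-injected embryos. The reads of their other pieces are not in the tables. The whole-gene level of c5 was lower at both stages. For cfhr2, ifit5 and ddx58, the whole-gene level was higher at stage 15 and no piece of the gene was listed. Because these members were picked from the listed values, those values are given as a description and not as a test.

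The authors' expression tables list genes past an adjusted p of 0.1, and at stage 15 only genes that changed at least 2-fold. At stage 15, 2094 genes were listed, which is 13.2% of the at least about 15917 genes that the deposited p-values imply were tested, with 944 (5.93%) higher and 1150 (7.22%) lower in MO-injected embryos. At stage 10 the list held 292 genes (2.18%), with 127 (0.95%) higher and 165 (1.23%) lower. Of the members, c5, cfhr2, ifit5 and ddx58 were in the stage 15 expression table and c5 alone was in the stage 10 one. The gene masp1 was in neither expression table. The bin tables hold pieces of genes (bins) whose share of the reads of their gene differed between the groups. In fitted usage, all 228 bins at stage 10 and all 1429 at stage 15 were higher in MO-injected embryos. Whether bins of lower usage were left out of the tables is not known, so this is not read as a result. Raw reads were lower in some listed bins, such as E001 of sox10 at stage 15 (log2 ratio -1.63). The listed bins are 0.14% and 0.744% of the bins that the p-values imply were tested. One bin of masp1 and 1 of c5 were in the stage 15 bin table, cfhr2, ifit5 and ddx58 were in no bin table, and no member was in the stage 10 bin table. A member that is absent from a table was not shown to be unchanged. No row of these tables is for taf15, the targeted gene, so the knockdown could not be checked at the level of RNA. Library totals are not in the tables, so depth is unknown; summed over the listed bins of stage 15, reads per embryo ran from 50451 to 83767 in MO-injected and from 4922 to 8389 in uninjected embryos, which is a sum over selected bins and not a depth.

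The gene masp1 encodes a serine protease that is bound to the recognition proteins of the lectin pathway and helps to start the cascade. Its listed bin, E008, spans 954 bases of the plus strand at scaffold_6:126449298-126450251, in a genome build that the sources do not name. In the 3 MO-injected embryos of stage 15 the bin held 284, 387 and 480 raw reads. In the 4 uninjected embryos it held 4, 0, 4 and 5. Every MO-injected embryo was far above every uninjected one, and 1 uninjected embryo had no read in the bin. The means were 383.7 ± 98.0 (SD, n = 3) and 3.25 ± 2.22 (SD, n = 4) raw reads, a ratio of 102 with 0.5 added to each mean, or 6.68 on the log2 scale. Per 100 bases, this was 40.2 raw reads in MO-injected and 0.341 in uninjected embryos.

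The gene c5 encodes the complement component whose cleavage releases the inflammatory peptide C5a and starts the membrane pore. Its listed bin, E011, spans 203 bases of the minus strand at scaffold_8:3578439-3578641. The MO-injected embryos held 80, 96 and 133 raw reads in it, and the uninjected ones 0, 2, 3 and 0. Again no uninjected embryo came near the lowest MO-injected one, and 2 of the 4 uninjected embryos had no read there. The means were 103.0 ± 27.2 (SD, n = 3) and 1.25 ± 1.5 (SD, n = 4) raw reads, a ratio of 59.1 with 0.5 added to each mean, or 5.89 on the log2 scale. Per 100 bases the MO-injected embryos had 50.7 raw reads in this bin, close to the density in the masp1 bin, and the uninjected embryos 0.616. The same MO-injected embryo was lowest and the same one highest in both bins, and these 2 embryos also had the lowest and the highest sum of reads over all listed bins. The part of sequencing depth in this was not tested.

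**Figure D1:**
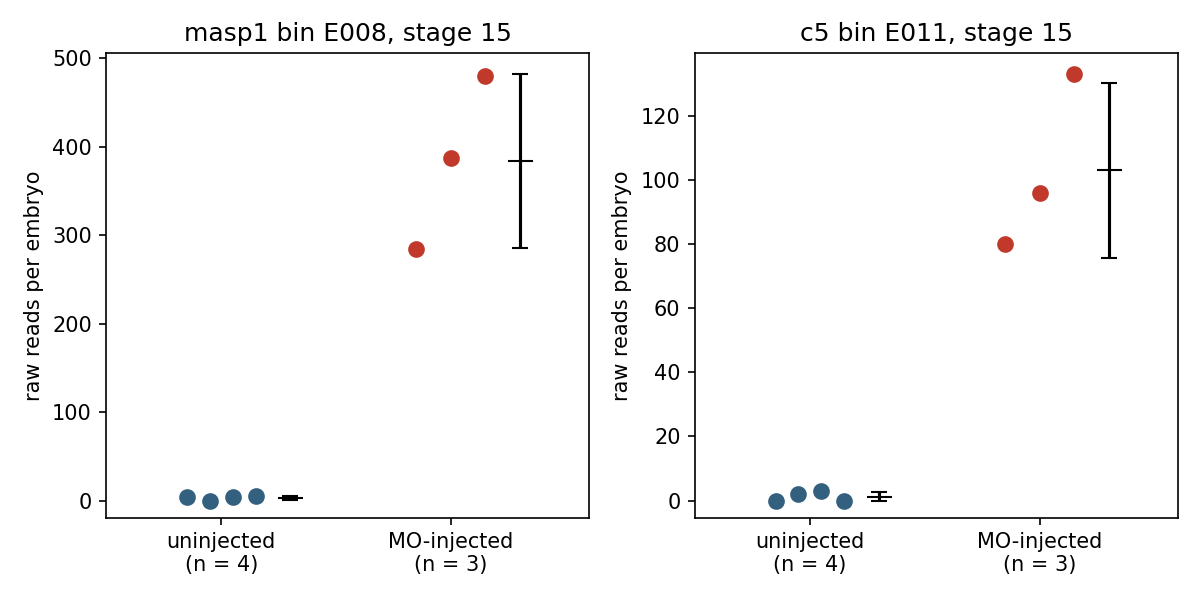
Raw reads per embryo (vertical axes) in bin E008 of masp1 and bin E011 of c5 at stage 15. Each point is 1 embryo, and the bar beside each group is the mean ± SD. The MO-injected embryos lie between 284 and 480 reads for masp1 and between 80 and 133 for c5, against at most 5 and 3 reads in uninjected embryos.

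Raw reads in a bin move with the level of the gene and with depth, whereas the authors' fitted usage sets the bin against the rest of its gene. The fitted usage of the masp1 bin in the authors' deposited table was 23.4 in MO-injected and 3.15 in uninjected embryos, a log2 ratio of 2.89 (adjusted p = 1.03e-149). For the c5 bin the authors' deposited table gave 18.67 and 1.38, a log2 ratio of 3.75 (adjusted p = 2.16e-141). The sources do not name the scale of these usage values. The c5 bin thus had the larger usage ratio and the masp1 bin the larger ratio of raw reads. No difference between the bins was tested. By adjusted p these bins ranked 9 and 11 of the 1429 listed at stage 15. By the ratio of raw reads masp1 ranked 26 and c5 ranked 51, against a median log2 ratio of 2.72 over all listed bins. By the deposited usage ratio they ranked 279 and 238, with a median log2 ratio of 1.75 over all listed bins. Among the 1200 listed bins with at least 1 read in an uninjected embryo masp1 ranked 50 and c5 ranked 9 by usage ratio.

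**Figure D2:**
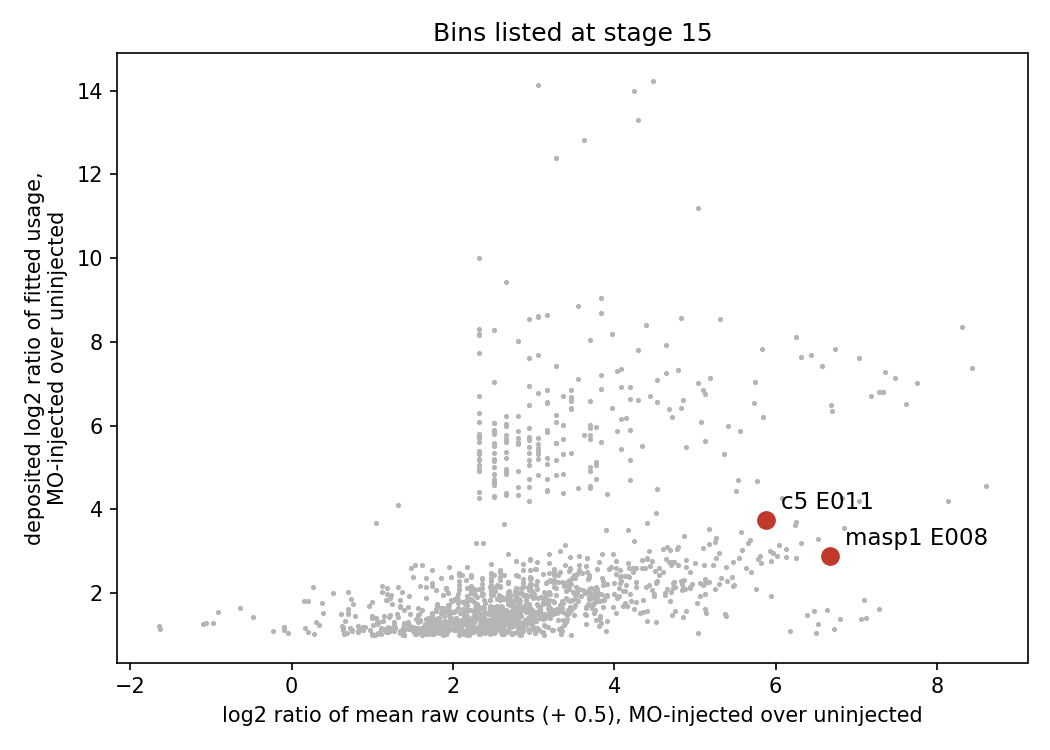
Each point is 1 of the 1429 bins listed at stage 15, with the log2 ratio of mean raw counts on the horizontal axis and the deposited log2 ratio of fitted usage on the vertical axis, both MO-injected over uninjected. The bins of masp1 and c5 (large points) lie to the right, at 6.68 and 5.89 on the raw count axis. On the usage axis they lie in the lower part, at 2.89 and 3.75, above the median of 1.75.

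The listed bins of stage 15 were mostly thinly covered, with a median over bins of 6.86 raw reads per embryo, and 854 of them had a mean under 10. By mean raw count the masp1 bin ranked 20 and the c5 bin 174. By length they ranked 215 and 668, against a median length of 180 bases. The lowest MO-injected embryo was above the highest uninjected embryo in both bins, as it was in 75.5% of all listed bins of stage 15. The listed bins were selected by a test on these same counts. In a further table, the authors' deposited list of the 10 top genes of stage 15 gave both genes 1 retained intron each, the 4th in masp1 and the 12th in c5. In that deposited list 7 of the 10 genes had 1 retained intron. The position of bins E008 and E011 in relation to these introns was not examined, since no annotation of this build was used here.

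The whole-gene level of c5 was lower in MO-injected embryos at both stages, while its bin E011 was higher at stage 15. The log2 fold change of c5 at stage 10 in the authors' deposited table was -2.04 (SE 0.547, adjusted p = 0.0182), a level 4.1 times higher in uninjected embryos. At stage 15 the authors' deposited table gave -1.47 (SE 0.221, adjusted p = 1.93e-09), or 2.77 times higher in uninjected embryos. It was the best covered of the 4 members listed for expression, with a mean normalised count of 1468 over embryos of both stages in the authors' deposited table. At stage 10 it was the 10th largest of 165 decreases, and at stage 15 the 656th of 1150, so a decrease of this size was common at stage 15. The difference between the stages, stage 15 minus stage 10, was 0.57 on the log2 scale (SE 0.59). Both values were selected by the authors' thresholds, so nothing is read from their difference. Of the 53 genes listed at both stages, 20 were lower at both. Listed genes with a raised bin were often lower in level. Of the 1046 genes with a bin listed at stage 15, 169 were also listed for expression. Of those, 118 were lower (69.8%, against 54.9% of all genes listed at stage 15). Nothing is read from this excess, since a lower level of the rest of a gene can by itself raise the usage of a bin. The per-embryo reads of whole genes are not in these tables. In whole embryos, fewer cells that express a gene and less RNA per cell cannot be told apart.

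Which sign of the deposited fold change means higher in MO-injected embryos is not written in those tables. It was read from the relation of deposited fold changes to raw bin reads: over the 169 genes with both values at stage 15, Spearman's rho was 0.692, and 0.709 over 11 genes at stage 10. These points share the same embryos. Taken without c5, the stage 15 value was 0.704 over 168 genes. Raw bin reads were mostly higher in MO-injected embryos whatever the sign of the fold. Their median log2 ratio at stage 15 was 4.09 for folds above 0 and 1.44 for folds below 0. At stage 10 these medians were 4.8 and 1.8. The relation is thus one of rank among listed bins, without correction for depth. The direction of every expression change here rests on that relation, and c5 itself, with a raised bin and a negative fold change, is not what fixes it.

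The gene cfhr2 bears the name of a human relative of factor H, the plasma protein that restrains the alternative pathway. It had the largest change of the members. Its log2 fold change at stage 15 in the authors' deposited table was 6.43 (SE 0.839, adjusted p = 2.60e-12), 85.9 times higher in MO-injected embryos and the 5th largest of 944 increases. Its mean normalised count in the authors' deposited table was 53.7 over embryos of both stages. The tables do not tell whether any uninjected embryo had reads of cfhr2, and a fitted fold of this size can depend on how a group near 0 is treated. The gene was not in the stage 10 table.

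The gene ifit5 encodes an interferon-induced protein that in humans binds RNA with triphosphate ends. In the authors' deposited table its log2 fold change at stage 15 was 4.16 (SE 0.714, adjusted p = 2.33e-07), 17.9 times higher in MO-injected embryos and the 42nd largest of the 944 increases. The gene ddx58 encodes RIG-I, the cytoplasmic helicase that detects such RNA. The authors' deposited table put its log2 fold change at 2.19 (SE 0.847, adjusted p = 0.0458), 4.57 times higher and the 277th largest increase. The 2 genes were thinly covered, with mean normalised counts of 22.9 for ifit5 and 5.48 for ddx58 in the authors' deposited table, against a median of 78.1 over all genes listed at stage 15. Of the members, ddx58 had the lowest mean and the highest adjusted p at stage 15, and its standard error was the largest beside its fold. In order of deposited fold, cfhr2 was followed by ifit5, ddx58 and c5, and the difference between neighbours in that order was not tested.

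**Figure D3:**
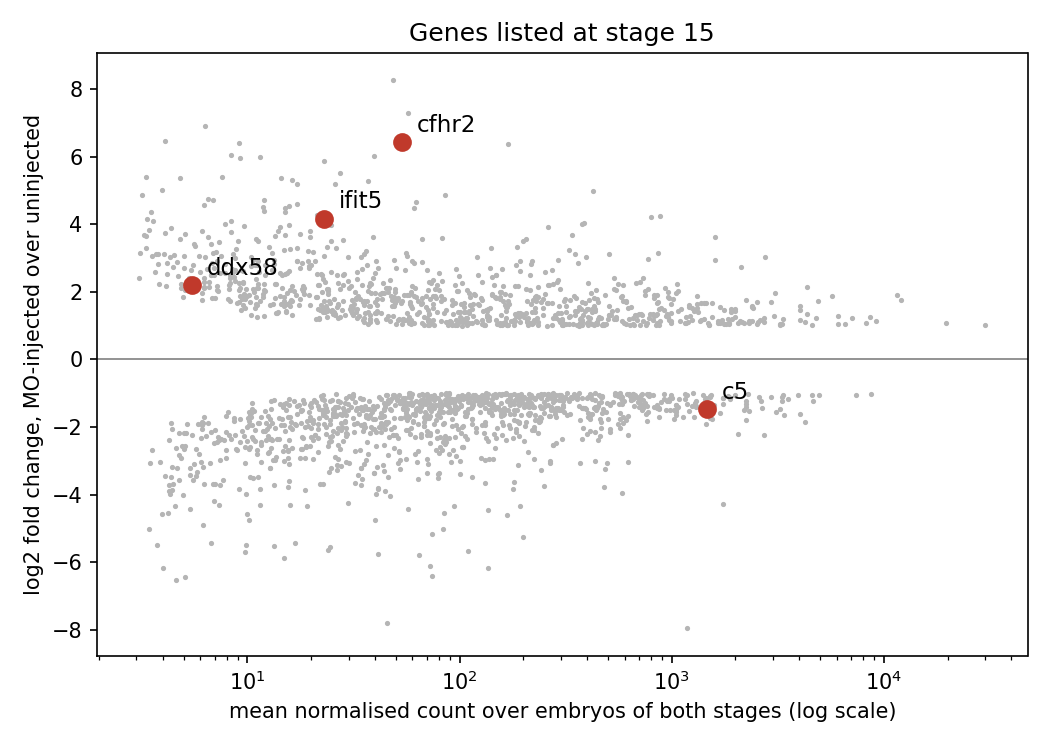
Each point is 1 of the 2094 genes listed at stage 15, with the mean normalised count over embryos of both stages on a log horizontal axis and the deposited log2 fold change on the vertical axis. Among the large points, cfhr2 (6.43), ifit5 (4.16) and ddx58 (2.19) are above 0 and lie at lower counts than c5 (-1.47), and the empty band around 0 is the 2-fold limit of the table.

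For each member listed at stage 15, the 3 genes with the nearest fold change at a mean normalised count within 1.5 times were looked up among genes whose symbol or synonym is in RefSeq's table. Identifiers of the form Xetro were left out, although some of them lay nearer to cfhr2, ifit5 and ddx58. This is a likeness that rests on 1 deposited contrast. For c5 they were mmp3, nosip and entpd2, at log2 fold changes of -1.49, -1.50 and -1.50 in the authors' deposited table. For cfhr2 the nearest genes with a symbol were btbd1 (5.27), fbp2 (4.67) and slc22a13 (8.26) in the authors' deposited table, none within 1 log2 unit of it. For ifit5 they included best4 (3.79) and smc1b (3.73), and for ddx58 they were alpi.2 (2.19), the chemokine gene ccl25 (2.17) and ctgfl (2.24), in the authors' deposited table.

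The rest of the complement system was then read from a list of 54 symbols, 36 of which are symbols in RefSeq's gene table of the species. At stage 15, 4 of the 54 were listed (7.41%, against 13.2% of all genes), 2 higher and 2 lower. Their median log2 fold change was 1.01, but 2 of these 4 genes are members, so nothing is read from it. Without the members, which were chosen for their values, 2 of 51 were listed, or 2 of the 34 with a symbol in RefSeq's table, 1 higher and 1 lower. Besides cfhr2 and c5 these were c3ar1, the receptor of the C3a peptide, and cfb, factor B, the protease subunit of the alternative pathway convertase. By the authors' deposited table, c3ar1 was higher at 3.14 (SE 1.06, adjusted p = 0.0181) and cfb was lower at -1.12 (SE 0.324, adjusted p = 0.00476) on the log2 scale, with mean normalised counts of 864.4 and 3320. The standard error of c3ar1 was larger than those of cfb and of c5 (0.221) at stage 15. How far single embryos agreed on c3ar1 cannot be seen here. At stage 10 only c5 of this list was in the table (1.85%, against 2.18% of all genes). The bins of masp1 and c5 were the only listed bins of the list, in 2 of its 54 symbols (3.7%, against 6.57% of the genes tested for expression). Both genes are members, so nothing is read from this share, and without the members the list had no listed bin. The listed complement genes thus went in both directions. Symbols outside RefSeq's table may not have been among the genes tested, so the shares of the 54 may be too low.

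The list of 37 RNA sensing symbols, 23 of them in RefSeq's gene table, had 4 genes listed at stage 15, all higher (10.8%, against 5.93% of all genes listed as higher). Their median log2 fold change was 1.88, but 2 of these 4 genes, ifit5 and ddx58, are members, so nothing is read from it. The list also holds rigi, another name of ddx58, and both the older and the newer name of some other genes, so shares of its symbols may be too low. Without the member symbols, which were chosen for their values, 2 of 35 were listed as higher (5.71%), or 2 of the 21 with a symbol in RefSeq's table (9.52%). These were riok3, a kinase that in human cells acts on RNA sensors, and adar, the enzyme that edits adenosine to inosine in double-stranded RNA. On the log2 scale riok3 was at 1.56 (SE 0.267, adjusted p = 2.09e-07) and adar at 1.15 (SE 0.247, adjusted p = 6.44e-05) by the authors' deposited table, with mean normalised counts of 1204 and 1369. None of the 37 was in the stage 10 expression table. The sensor genes ifih1 and tlr3 and the adaptor gene mavs were absent at both stages, which does not show that they were unchanged.

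The list of 53 interferon and NF-kB signalling symbols, which holds no member, had 6 genes at stage 15 (11.3%, against 13.2%), 3 higher and 3 lower, with a median of 0.10. The higher ones in the authors' deposited table were usp18, which removes the ubiquitin-like protein ISG15 and damps interferon signalling (1.72, SE 0.502), the death-domain adaptor fadd (1.39, SE 0.355) and the NF-kB inhibitor nfkbie (1.25, SE 0.405). The level of nfkbie may include reads of its listed bin, which is described below. The lower ones in the authors' deposited table were the membrane protein gene ifitm1 (-1.05, SE 0.311), the adaptor gene tradd (-1.26, SE 0.381) and the kinase gene ikbke (-2.99, SE 0.941), the last on a mean normalised count of 7.39. At stage 10 the receptor-bound kinase gene tyk2 was higher by the authors' deposited table, at 0.49 (SE 0.144, adjusted p = 0.0471). The interferon-induced genes isg15, mx1, mx2 and rsad2 and the factor genes irf3, irf7 and stat2 were in no expression table. Their absence does not show that they were unchanged, and only 46 of the 53 symbols are in RefSeq's gene table.

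**Figure D4:**
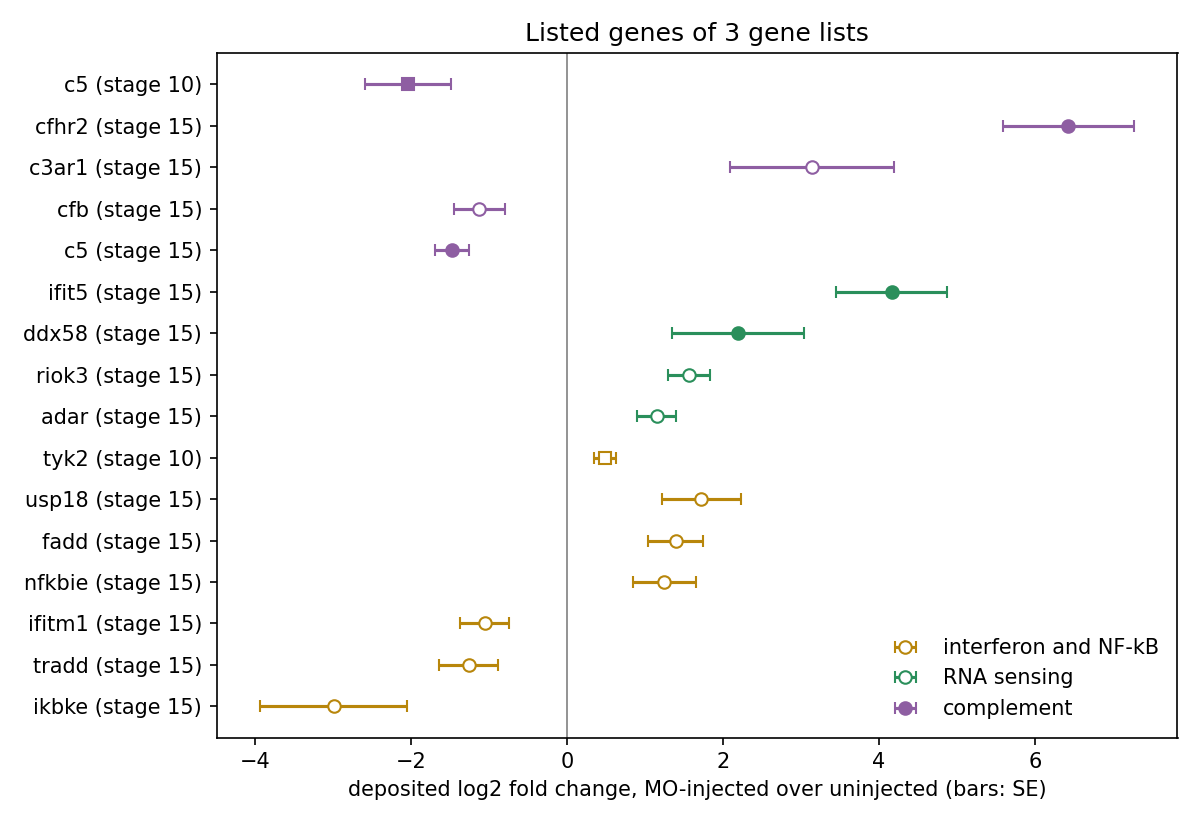
Deposited log2 fold changes, MO-injected over uninjected, with standard errors (bars) for the listed genes of 3 lists. Circles are stage 15 and squares stage 10, and filled symbols are members. The 4 RNA sensing genes lie to the right of 0, from adar (1.15) to ifit5 (4.16), but 2 of them are members, chosen for their values. Without the member symbols, 2 of 35 were listed as higher (5.71%, against 5.93% of all genes). The complement and interferon and NF-kB genes lie on both sides.

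The bin tables were then read for the other genes of RNA sensing and interferon signalling. At stage 15, 3 of the 37 RNA sensing symbols (8.11%) and 5 of the 53 interferon and NF-kB symbols (9.43%) had a listed bin. Over all genes this was 1046, or 6.57% of the at least about 15917 tested for expression. At stage 10 the symbols with a listed bin were 2 of 37 (5.41%) and 0 of 53, against 1.44%. Only 23 of the 37 and 46 of the 53 symbols are in RefSeq's gene table, so the shares of both lists may be too low. Counts this small are given as a description, and nothing particular to these lists is read from them. The adaptor gene myd88, which passes signals from Toll-like receptors, had the same bin, E006, listed at both stages, 27 bases of the plus strand at scaffold_6:140527089-140527115. At stage 10 it held 36, 43 and 39 raw reads in MO-injected embryos and 2, 0 and 2 in uninjected ones. At stage 15 it held 37, 18 and 51 raw reads against 0, 5, 1 and 3. The groups did not overlap at either stage, as in 97.4% of all listed bins of stage 10 and 75.5% of those of stage 15. The log2 usage ratio of the bin by the authors' deposited tables was 2.18 (adjusted p = 2.37e-13) at stage 10 and 1.94 (adjusted p = 5.55e-20) at stage 15.

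In adar, bin E006 at stage 10 and bin E005 at stage 15 adjoin each other with 0 bases between them, and bin E023 was listed as well at stage 15. Bin E006 held 43, 54 and 48 raw reads in MO-injected embryos of stage 10 and 6, 6 and 13 in uninjected ones. Bin E005 held 29, 29 and 20 raw reads in MO-injected embryos of stage 15 and 3, 0, 3 and 2 in uninjected ones, and bin E023 held 63, 44 and 63 against 8, 5, 1 and 7. The groups were apart in each of the 3 bins, as in 97.4% of all listed bins of stage 10 and 75.5% of those of stage 15. How reads were counted per gene is not described, so the higher level of adar at stage 15 may include reads of these bins. At stage 15, bins E005 and E023 had means of 26.0 and 56.67 raw reads in MO-injected embryos, and 2.0 and 5.25 in uninjected ones. The mean normalised count of the whole gene was 1369 over embryos of both stages. The part of these bins in the higher level was not tested.

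The kinase gene eif2ak2, which encodes the RNA-activated kinase PKR, had 1 thin bin at stage 15, with 5, 2 and 1 raw reads in MO-injected embryos and none in the 4 uninjected ones. Of the interferon and NF-kB list, 6 bins in 5 genes were listed at stage 15: tyk2, tank, traf6, nfkbie and irf2. The bin of nfkbie held 24, 336 and 271 raw reads in MO-injected embryos and 21, 21, 28 and 53 in uninjected ones. One MO-injected embryo of nfkbie thus lay within the range of the uninjected embryos and the other 2 lay far above it. The bin had means of 210.3 raw reads in MO-injected and 30.75 in uninjected embryos. The mean normalised count of the whole gene was 137 over embryos of both stages. The part of this bin in the higher level of nfkbie was not tested. The groups overlapped in the bins of nfkbie and traf6 and were apart in the other 4, and they were apart in 75.5% of all listed bins of stage 15. In the authors' bin usage test, adjusted p of the 6 bins ran from 2.69e-07 in tyk2 to 0.082 in irf2, with 0.067 in nfkbie. The highest ratio of raw reads at stage 15 among the other bins of the 3 lists was 13.0, in myd88, compared with 102 in masp1 and 59.1 in c5. Nothing is read from this, since masp1 and c5 were chosen with results of these data known. Over all 1429 listed bins they ranked 26 and 51.

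**Figure D5:**
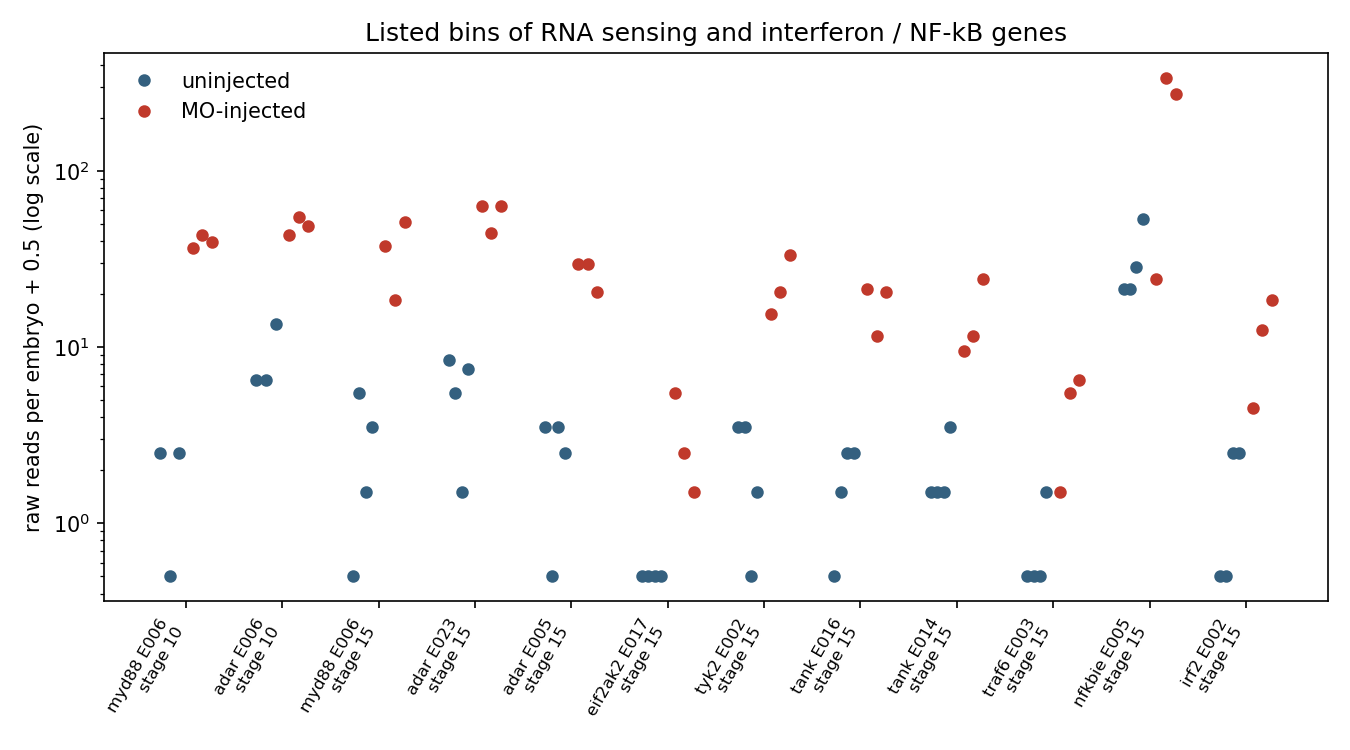
Raw reads per embryo plus 0.5 (log vertical axis) in every listed bin of the RNA sensing and the interferon and NF-kB lists, by gene, bin and stage. Each point is 1 embryo. The groups are apart in all bins except those of traf6 and nfkbie, where 1 MO-injected embryo is no higher than the highest uninjected one. Over all listed bins the groups were apart in 97.4% at stage 10 and 75.5% at stage 15.

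Complement proteins are made by liver and by blood cells in adults, and markers of both were looked up beside these results. Of 19 myeloid and other blood cell markers, cebpe was higher (2.23, SE 0.641) and cybb was lower (-2.83, SE 0.536) at stage 15 in the authors' deposited table (10.5% listed, against 13.2% of all genes), and none was in the stage 10 table. Of 16 liver and anterior endoderm markers none was in either expression table (against 13.2% and 2.18% of all genes), and apoa1 had 1 bin listed at stage 15. Levels of unlisted markers are not in these tables, so their range per group cannot be given, and their part in the changes of c5, cfhr2 and c3ar1 was not tested.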

How the data were processed

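Per the submitters' processing notes, TopHat, Bowtie, Cufflinks, Cuffdiff, DESeq and DESeq2 were used, with no role or version given. Genome build, annotation and read counting are not named there. Per the file headers, the authors' expression tables give, for each gene, a mean normalised count that is a signal scaled by size factors (the same at both stages, to a relative tolerance of 1e-06, for all 53 shared genes), a log2 fold change with standard error, a Wald score, and p-values before and after adjustment. The authors' deposited bin tables hold raw counts per embryo, fitted usage scores, a log2 usage ratio whose sign was turned, and p-values. The stage 15 count columns are named for stage 10, and were used as stage 15 because the fitted columns name that stage and there are 4 uninjected columns. No column number is tied to an embryo. One uninjected embryo whose description names stage 10 was placed at stage 15 by its title and stage field.

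The tables hold selected rows only, so no model was refitted and adjusted p-values are the authors'. Numbers tested are lower bounds from the Benjamini-Hochberg relation of p to adjusted p, so shares of listed genes or bins are upper bounds. A pseudocount of 0.5 was added to group means before ratios were taken, which are not corrected for depth. A planned Wald test of the stage difference (scipy 1.17.1, checked on simulated data) is not used, since c5 was selected at both stages. The named genes were all members, all listed genes of the 3 pathway lists and of the marker lists, and the 3 nearest genes per member, of which 1 is not reported here. The members and lists were chosen with earlier results of these data known. Lists were matched by symbol. RefSeq's gene table (assembly UCB_Xtro_10.0) held 4 of the 5 member symbols, cfhr2 being the exception, and was used for names only. Alternatives are given in the closing section.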

Additional observations from a re-analysis of the deposited data

Results flagged for a closer look

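For stage 15 bins of these genes and lists, 13 sets of 4 uninjected embryos were looked at by Dixon's test. In 2 of them, 1 embryo stood apart from the other 3. The usual chance rate of about 1 in 20 is for continuous values and does not hold for low counts with ties. In bin E014 of tank it had 3 raw reads against 1 in each of the others. In bin E003 of traf6 it had 1 raw read and the others had none. Both rest on a difference of 1 or 2 reads. With the other 3 embryos tied, this test flags any lone differing count, so nothing is read from either.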

How the results depend on the processing

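The log2 ratio of raw counts of the masp1 bin ran from 6.31 to 6.92 and that of the c5 bin from 5.58 to 6.47 when each embryo was left out, the last without the uninjected column numbered 3. With a pseudocount of 1 these ratios were 6.5 and 5.53, and with group medians 6.43 and 6.01. With an adjusted p under 0.01, only 1 complement gene was listed as higher at stage 15 in place of 2, since c3ar1 was lost, and 3 members in place of 4, since ddx58 was lost. With a mean normalised count of 10 or more, ddx58 was lost as well. Matching by RefSeq synonym added tdgf1 to the complement genes and eif2ak1 to the RNA sensing genes, each through a synonym shared with another gene. The other counts of listed genes stayed within 1.5 times under the alternatives run. No paired analysis was possible because the count columns carry no replicate letter of the labels and the expression tables hold no values per embryo. Depth per embryo is unknown, which limits all raw count ratios.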

Other observations

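Some further immune genes outside the lists were in the stage 15 expression table and were picked after their values were seen. The interferon lambda gene il28b.2 was higher in the authors' deposited table, at 2.58 on the log2 scale (SE 0.656, adjusted p = 0.00101), and c3p1, named for complement component C3, was higher at 2.81 (SE 0.652, adjusted p = 0.000269). By the authors' deposited table, stat3.2 was at 1.15 (SE 0.519, adjusted p = 0.0970). By the authors' deposited table, the interleukin receptor subunit gene il1rap was lower at -1.53 (SE 0.587, adjusted p = 0.0434), as was the interleukin gene il15 at -3.47 (SE 1.44, adjusted p = 0.0665), the last on a mean normalised count of 4.35.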
